A study of Mus musculus with 6 samples.

Results

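Solute carriers are membrane proteins that move nutrients, ions and metabolites across the cell surface or across the membranes of organelles, and their genes are numbered by sequence family. The carriers described here are all probe sets whose single platform gene symbol starts with Slc and a digit, without the Slc22, Slc30, Slc31 and Slc39 families and without Slc2a2, Slc10a1, Slc11a2, Slc25a15, Slc25a20, Slc26a1, Slc27a5, Slc37a4 and Slc40a1. The rule gave 174 probe sets for 118 genes, out of 11811 probe sets in the table. Of these, 158 probe sets for 106 genes had a mean signal of at least 100 over all arrays and were tested.

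The data are 3 liver RNA samples labelled as Atp7b knockout (KO903, KO904 and KO905) and 3 labelled as wild type (WT4, WT5 and WT6), each named after a mouse and measured on 1 Affymetrix array. Atp7b is the copper-exporting ATPase that is lost in Wilson disease, and the title places the study early in copper accumulation. The labels cite the report in which the knockout line was first described, and give no age, sex, strain, diet or treatment for either group. Median signals of the arrays were 330.15 to 342.35, and log2 signals correlated at 0.974 to 0.981 between arrays of the same group and at 0.960 to 0.970 between arrays of different groups. The probe set of Atp7b itself read 240.5, 231.8 and 184.9 in knockout livers, against 259, 299.7 and 241 in wild-type livers (log2 difference -0.27 ± 0.16, SE; adjusted p = 0.407), so the array does not check the genotype. Of 6 tested genes known from hepatocytes, such as Alb and Apoa1, 0 passed the test, with 2 log2 differences above 0 and 4 below. Tat was the 1 at an unadjusted p under 0.05 in limma (log2 -0.42, adjusted p = 0.0803), and its groups did not overlap. The summed signals of the 6 genes were 105499 to 120900 in knockout livers and 112726 to 137643 in wild-type livers.

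In hepatocytes, carriers at the sinusoidal membrane take up amino acids from portal blood for protein synthesis, glucose production and the urea cycle. The System A and System N carriers of the Slc38 family use the sodium gradient for this, and the Slc7 family carries amino acids largely by exchange or down the membrane potential. Mitochondrial carriers of the Slc25 family pass dicarboxylates, nucleotides, phosphate and amino acids through the inner membrane and so link both compartments in the urea cycle, glucose production and respiration.

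In the knockout livers 4 carriers of amino acids fell, and 4 carriers of dicarboxylates or of ATP-magnesium rose. Slc38a2, Slc38a3, Slc38a4 and Slc7a2 were lower, and Slc25a10, Slc25a23, Slc25a25 and Slc13a3 were higher, each on 1 probe set, by 1.41-fold to 1.99-fold. The least stable of these was Slc7a2, whose call was lost without any 1 of the samples. Slc13a3 passed the filter on signal through its knockout values. A probe set was called when limma gave an adjusted p under 0.05 over all 10620 tested probe sets. By that rule 4 of 158 carrier probe sets were higher and 4 were lower, beside 2.05% higher and 2.09% lower among all tested probe sets. These shares are near the background, so the number of calls does not set the carriers apart. Knockout and wild-type values did not overlap in 46 of 158 carrier probe sets, against 23.6% of all tested probe sets, with 23 above (13.2% of all tested) and 23 below (10.4% of all tested). The balance of the calls moved with the scaling, to 3 higher and 6 lower after quantile normalization and to 3 higher and 7 lower with each array centred on its median. The whole table moved too, from 218 higher and 222 lower to 224 and 231 after quantile normalization, and to 185 and 253 with centring. The median log2 difference of the 106 genes, each read on its probe set with the highest mean signal, was 0.01, against 0.03 over 6604 tested genes.

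**Figure D1:**
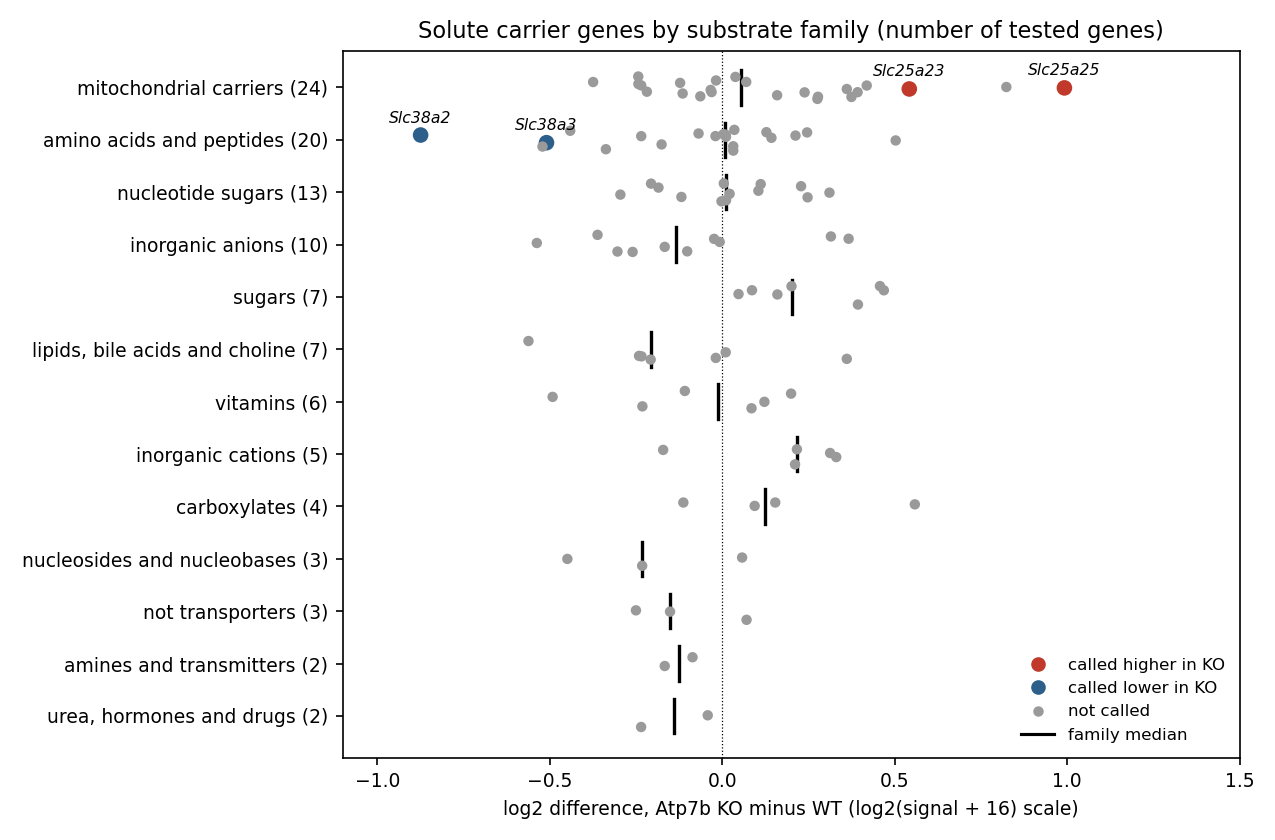
Log2 difference (Atp7b knockout minus wild type) of each tested carrier gene, read on its probe set with the highest mean signal, by substrate family; large coloured points are called genes and black bars are family medians. Of 106 genes, Slc25a25 and Slc25a23 lie to the right and Slc38a2 and Slc38a3 to the left as called genes, and the family medians lie between -0.23 and 0.22.

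The calls fell into few substrate families. The 4 lower probe sets belonged to the carriers of amino acids and peptides (30 tested probe sets, 20 genes), which had none higher, and 3 of the 4 higher ones to the mitochondrial carriers (43 tested probe sets, 24 genes), which had none lower. The remaining higher probe set was of Slc13a3, among 5 tested probe sets of carboxylate carriers. Whether the calls were more concentrated than in other families was not tested. Read on the probe set with the highest mean signal alone, 2 carrier genes were higher and 2 lower, beside 2.14% higher and 1.8% lower among all tested genes. When the probe sets of a gene were averaged, 4 were higher and 4 lower: those named above without Slc7a2, and with Slc46a3 (log2 -0.49 ± 0.12, SE; adjusted p = 0.0369). The share over all genes in that averaged fit is not given here, so these counts have no background beside them.

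**Figure D2:**
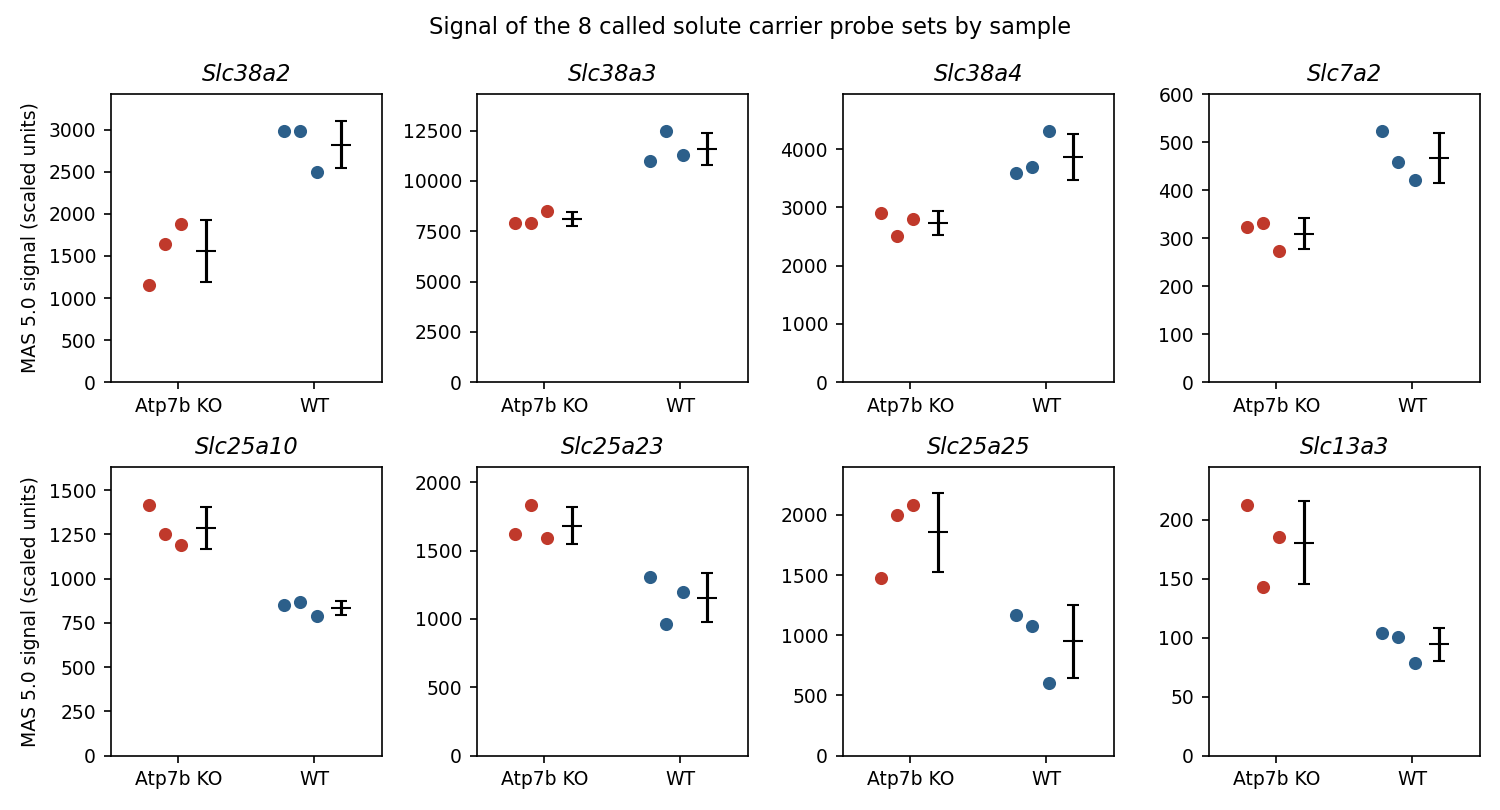
Scaled MAS 5.0 signals of the called probe set of each gene in 3 Atp7b knockout livers (red, left) and 3 wild-type livers (blue, right), with the mean and SD of each group as bars; every axis starts at 0. In all 8 panels the points of the groups do not overlap, as for Slc38a3 (7919.3 to 8529 in knockout livers, 10993.9 to 12473.2 in wild-type livers).

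Slc38a2 encodes SNAT2, a System A carrier that takes up small neutral amino acids such as alanine together with sodium. Its signals were 1150, 1645.6 and 1882.2 in knockout livers, against 2983.9, 2983.8 and 2500.7 in wild-type livers. All knockout values were below all wild-type values, and KO903 was the lowest. The log2 difference was -0.87 ± 0.17 (SE; adjusted p = 0.0157), the largest decrease among the tested carriers, or 1.83-fold.

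Slc38a3 encodes SNAT3, the System N carrier that moves glutamine, histidine and asparagine in hepatocytes. It read 7919.3, 7921.6 and 8529 in knockout livers, against 10993.9, 12473.2 and 11272.1 in wild-type livers. The knockout values lay close together and well below the wild-type range. The log2 difference was -0.51 ± 0.09 (SE; adjusted p = 0.0108).

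Slc38a4 encodes SNAT4, a System A carrier of liver. On the called probe set it read 2899.9, 2503.4 and 2794.6 in knockout livers, against 3586.5, 3687.9 and 4306.3 in wild-type livers (log2 -0.49 ± 0.11, SE; adjusted p = 0.0329). Its brighter probe set read 6640.4, 6881.9 and 6985.2 in knockout livers, against 8247.5, 8825.4 and 8854.5 in wild-type livers. The groups did not overlap there either, but that probe set missed the threshold (log2 -0.34 ± 0.09, SE; adjusted p = 0.0549).

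Slc7a2 encodes CAT2, a carrier of arginine and other cationic amino acids. The called probe set read 323, 332.4 and 272.5 in knockout livers, against 523.2, 458.4 and 421.1 in wild-type livers (log2 -0.57 ± 0.14, SE; adjusted p = 0.0474). The brightest of its 3 tested probe sets read 627.3, 723.4 and 577.1 in knockout livers, against 752.9, 731.1 and 784.2 in wild-type livers (log2 -0.23, adjusted p = 0.36). The remaining one overlapped between groups, with 202.1 to 474.9 in knockout livers and 363.5 to 545.8 in wild-type livers (log2 -0.46, adjusted p = 0.39). All 3 had the same sign, but the call rests on 1 of them, and it was lost with no filter on signal, without the trend in eBayes, and without any 1 of the samples.

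Not all of the Slc38 family was lower. Slc38a1, a System A carrier whose gene lies next to Slc38a2, which has Slc38a4 on its other side, in the order of mouse assembly GRCm38.p6, read 176.5, 154.5 and 184.5 in knockout livers, against 188, 163.3 and 191.5 in wild-type livers. Its groups overlapped (log2 -0.07, 95% interval -0.40 to 0.27). Slc38a10 had 5 tested probe sets, with log2 differences of 0.03 to 0.10 and 0 calls.

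The other carriers of amino acids and peptides did not pass the test. Slc1a2, the glutamate carrier GLT-1, read 311.7, 328.7 and 414.5 in knockout livers, against 251.3, 217.5 and 257.9 in wild-type livers. The groups did not overlap, and the log2 difference was 0.50 ± 0.15 (SE; adjusted p = 0.0964). Slc3a2, the heavy chain that partners several Slc7 carriers, had a log2 difference of 0.04 with a 95% interval from -0.27 to 0.34. Slc66a2, placed here by its number, had 3 tested probe sets with log2 differences of -0.52 to -0.07 (lowest adjusted p = 0.101). The taurine carrier Slc6a6 (log2 0.01) and the betaine and GABA carrier Slc6a12 (0.01) overlapped between groups, while Slc6a13, another GABA and taurine carrier, was below wild type in all knockout livers without passing (log2 -0.18, adjusted p = 0.411). In the family as a whole, 11 of 20 genes had a log2 difference above 0 and 9 below, and the median of 0.01 was below 0 after quantile normalization (-0.03) or median centring (-0.02) and without any 1 of the samples (-0.07 to -0.02).

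**Figure D3:**
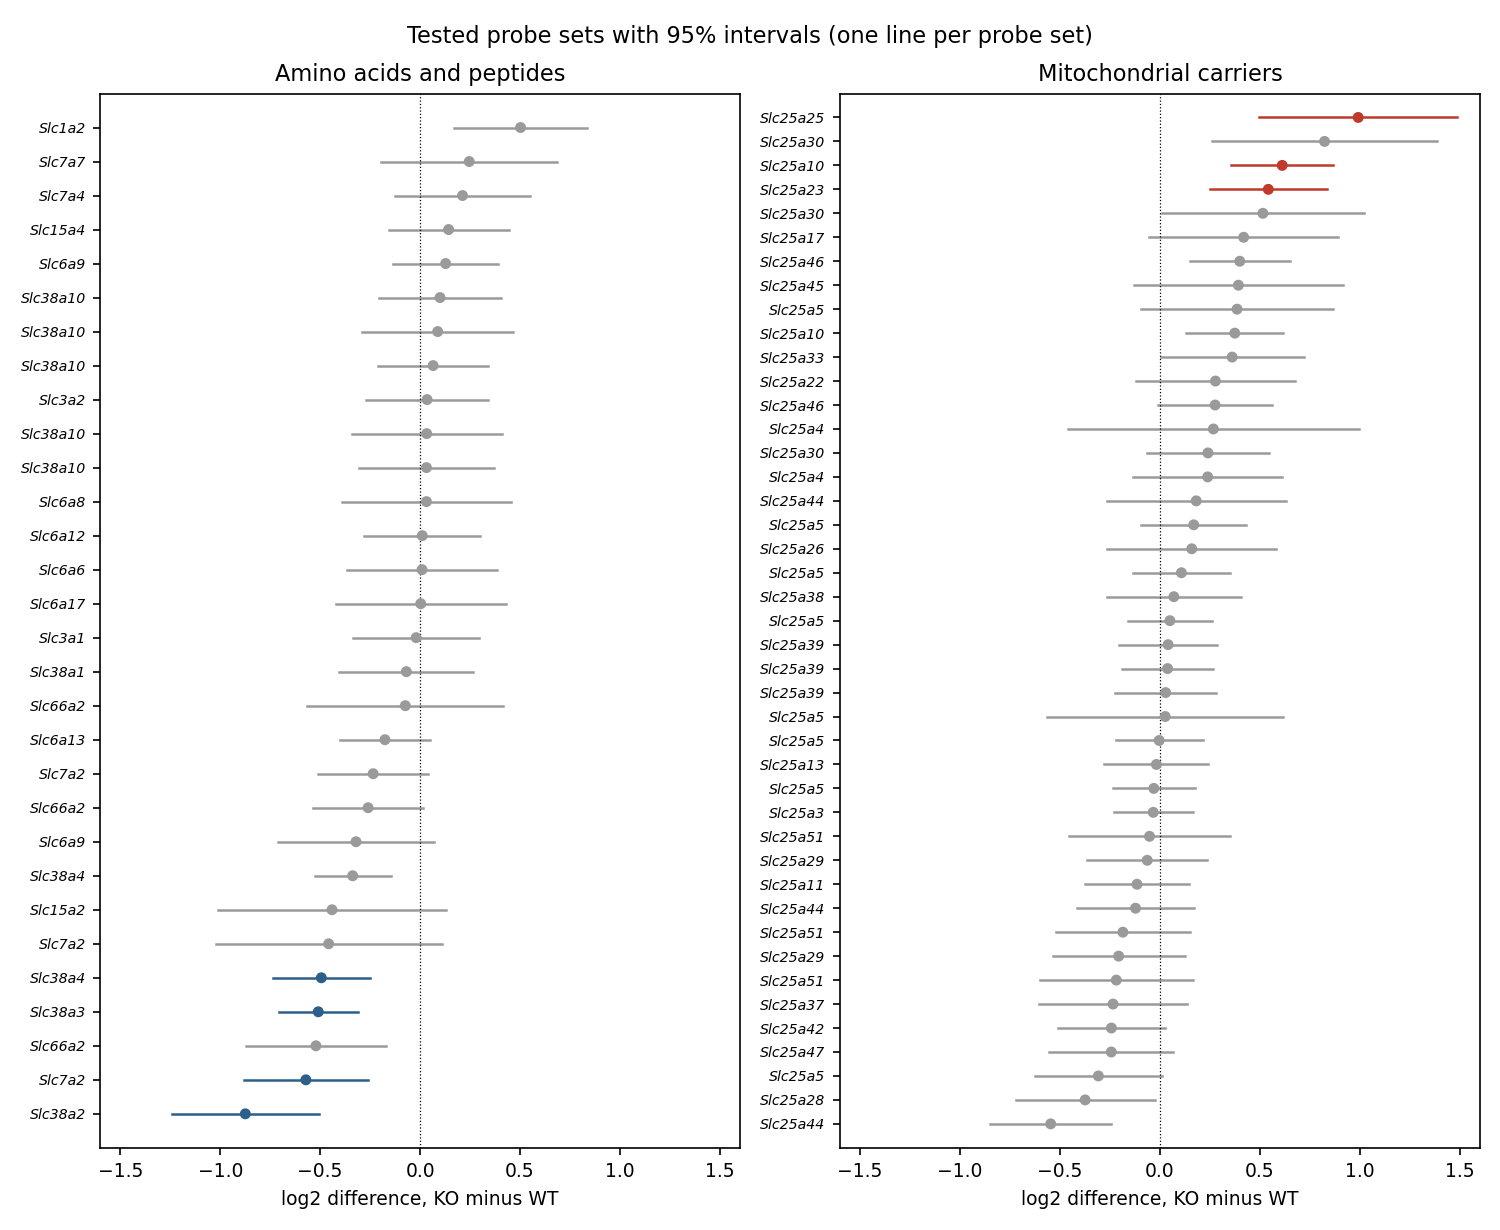
Log2 difference (Atp7b knockout minus wild type) with 95% interval for every tested probe set of the amino acid and peptide carriers (left) and of the mitochondrial carriers (right), ordered by value; coloured lines are called probe sets. The called intervals reach from -1.24 to -0.25 on the left and from 0.25 to 1.49 on the right.

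Among the mitochondrial carriers the largest increase was in Slc25a25, one of the calcium-regulated carriers that exchange ATP-magnesium for phosphate and so set the adenine nucleotide content of the matrix. It read 1478.4, 2000.3 and 2085.2 in knockout livers, against 1168.7, 1079.4 and 604.3 in wild-type livers. WT6 was well below the other wild-type samples and KO903 was the lowest of the knockout samples. The log2 difference was 0.99 ± 0.22 (SE; adjusted p = 0.0339), or 1.99-fold, and 0.70 without WT6.

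Slc25a23, another carrier of ATP-magnesium and phosphate, read 1618.7, 1835.2 and 1589.3 in knockout livers, against 1309.3, 962.7 and 1197 in wild-type livers. All knockout values were above all wild-type values, with WT5 the lowest. The log2 difference was 0.54 ± 0.13 (SE; adjusted p = 0.0471).

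Slc25a10, the dicarboxylate carrier that exchanges malate or succinate for phosphate, rose on 1 of its 2 probe sets. That one read 1417.5, 1254.3 and 1188.4 in knockout livers, against 848.7, 867.5 and 788.7 in wild-type livers (log2 0.61 ± 0.12, SE; adjusted p = 0.0156). The brighter one read 2084, 1711.5 and 1928 in knockout livers, against 1486.9, 1445 and 1458.2 in wild-type livers (log2 0.37 ± 0.11, SE; adjusted p = 0.0884). The groups did not overlap on either.

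Other mitochondrial carriers stayed short of the threshold. Slc25a30, a carrier studied mainly in kidney, had 3 tested probe sets with log2 differences of 0.24 to 0.82. Its brightest read 1169.7, 581.7 and 520 in knockout livers, against 327.5, 419.3 and 442.4 in wild-type livers (adjusted p = 0.107), and KO903 was far above the rest. Slc25a44, a carrier of branched-chain amino acids, read 435.5, 368.7 and 432.5 in knockout livers, against 695.8, 593.5 and 543.7 in wild-type livers on 1 probe set (log2 -0.55 ± 0.14, SE; adjusted p = 0.0522). Its other probe sets had log2 differences of -0.12 and 0.18, so they disagree in sign, and the probe set of -0.55 passed after quantile normalization or median centring. Slc25a46, an outer membrane protein of the family, had log2 differences of 0.40 (adjusted p = 0.0799) and 0.28 on its 2 probe sets.

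Several carriers with central roles were not called. Slc25a3, which brings phosphate and also copper into the matrix, read 6124.5, 6529.6 and 6506.6 in knockout livers, against 6192.5, 6677.8 and 6747.8 in wild-type livers. The groups overlapped, and the log2 difference was -0.03 with a 95% interval from -0.23 to 0.16. Slc25a13, the aspartate and glutamate carrier that feeds the urea cycle, had a log2 difference of -0.02 (95% interval -0.28 to 0.24). Slc25a39, which imports glutathione into mitochondria, gave log2 differences of 0.03 to 0.04 on 3 probe sets. Slc25a5, an ADP and ATP exchanger, had 8 tested probe sets with log2 differences of -0.31 to 0.39, and 0 passed. Slc25a47, a carrier found mainly in liver, read 8060.3, 7185.2 and 7532.8 in knockout livers, against 8542.1, 7417.8 and 11430.8 in wild-type livers (log2 -0.24, adjusted p = 0.405). WT6 was the highest there, and the groups overlapped.

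The iron importers of mitochondria had lower means without a call. Slc25a28 (mitoferrin-2) read 215.3, 186.2 and 222.5 in knockout livers, against 241.4, 328.2 and 258.1 in wild-type livers (log2 -0.37 ± 0.16, SE; adjusted p = 0.242). Slc25a37 (mitoferrin-1) overlapped between groups (log2 -0.23, adjusted p = 0.517). Over the 24 tested genes of the mitochondrial carriers, 13 log2 differences were above 0 and 11 below, with a median of 0.05 that was -0.01 without WT4.

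Slc13a3 encodes the sodium-dependent carrier NaDC3, which takes up succinate and other dicarboxylates from blood. The called probe set read 212.9, 143 and 185.3 in knockout livers, against 104.1, 100.4 and 78.5 in wild-type livers (log2 0.82 ± 0.19, SE; adjusted p = 0.0362). Its other probe set, of a type that can bind related transcripts, read 192.9, 147.5 and 172.6 in knockout livers, against 95.7, 104.1 and 134.4 in wild-type livers (log2 0.56 ± 0.18, SE; adjusted p = 0.12). The groups did not overlap on either, but the called probe set averaged 94.3 in wild-type livers, below the limit of 100, and was tested only because its knockout values raised the mean over all arrays. It also passed when all probe sets were tested without that limit. Slc16a1, the lactate and pyruvate carrier MCT1, read 842.2, 747.4 and 820.6 in knockout livers, against 819.7, 600.3 and 757 in wild-type livers, and its groups overlapped (log2 0.15, adjusted p = 0.623).

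Promoters of the called genes are shown because the study concerns copper, and metal and antioxidant response elements are the letters known for factors that answer to metals and oxidants. RefSeq promoters (GRCm38.p6) were found for 6 of the 8 called genes, with 11 start sites in all, and the 250 bases before each start were searched on both strands. The motifs were TGACNNNGC (antioxidant response element), TGCACNC or TGCGCNC (metal response element), TGATGNAA (C/EBP-ATF element) and CACGTG (E-box). They occur in 10.2%, 21.4%, 3.45% and 6.02% of all 32851 promoter windows of that length. Windows holding a match are printed 5′ to 3′ on the gene's strand, with matches in capitals; all lie on the minus strand.
Slc25a25, chr2:32451471-32451720: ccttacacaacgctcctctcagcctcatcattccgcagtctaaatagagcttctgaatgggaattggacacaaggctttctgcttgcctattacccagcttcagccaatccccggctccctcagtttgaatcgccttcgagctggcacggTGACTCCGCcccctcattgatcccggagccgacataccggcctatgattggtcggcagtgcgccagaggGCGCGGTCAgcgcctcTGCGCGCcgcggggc
Slc25a23, chr17:57059864-57060113: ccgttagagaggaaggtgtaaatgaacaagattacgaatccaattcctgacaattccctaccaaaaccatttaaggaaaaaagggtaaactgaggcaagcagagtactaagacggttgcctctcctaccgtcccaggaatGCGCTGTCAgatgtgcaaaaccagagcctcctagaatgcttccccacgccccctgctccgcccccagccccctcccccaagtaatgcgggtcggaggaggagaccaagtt
Slc13a3, chr2:165473198-165473447: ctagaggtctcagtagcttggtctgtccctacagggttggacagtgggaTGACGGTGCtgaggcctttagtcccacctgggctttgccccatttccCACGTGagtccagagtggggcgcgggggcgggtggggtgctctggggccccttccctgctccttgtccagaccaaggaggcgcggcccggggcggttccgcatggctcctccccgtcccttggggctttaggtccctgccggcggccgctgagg
Slc38a2, chr15:96699729-96699978: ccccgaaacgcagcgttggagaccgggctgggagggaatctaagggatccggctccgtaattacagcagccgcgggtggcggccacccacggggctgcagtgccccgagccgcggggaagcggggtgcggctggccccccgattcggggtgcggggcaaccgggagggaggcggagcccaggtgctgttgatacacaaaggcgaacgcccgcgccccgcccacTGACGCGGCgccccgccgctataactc
Slc38a4, chr15:97020360-97020609: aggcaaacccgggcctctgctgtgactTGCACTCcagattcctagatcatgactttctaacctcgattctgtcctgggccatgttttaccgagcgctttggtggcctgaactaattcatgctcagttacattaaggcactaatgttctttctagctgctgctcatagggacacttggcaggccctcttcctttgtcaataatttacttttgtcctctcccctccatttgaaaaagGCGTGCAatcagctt

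The first Slc25a25 window holds 2 antioxidant response element matches, which begin 100 and 31 bases before the start, and 1 metal response element match that begins 15 bases before it. The windows of the other Slc25a25 starts hold no match to any of the motifs. Slc25a23 holds an antioxidant response element match that begins 110 bases before the start, and its other start shares that match. Slc13a3 holds one at 201 bases and an E-box at 154 bases, and Slc38a2 holds one at 27 bases. Of the 3 starts of Slc38a4, the one printed holds 2 metal response element matches, at 223 and 15 bases, and the others hold no match. The letters of the C/EBP-ATF element were in none of the 11 windows, those of Slc25a10 held no match, and Slc38a3 and Slc7a2 are named only. A match is a description of letters and not a shown binding site. Sequence outside the 250 bases before each start, such as introns, was not searched, so an element there would be missed.

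Outside the families above no carrier was called. Over all tested genes 18% had an unadjusted p under 0.05, against 19.8% of the carrier genes (21 of 106). Sugar carriers had 7 tested genes, all with a log2 difference above 0 and 0 called (2 at an unadjusted p under 0.05 in limma). Of the 7, Slc2a1 averaged 99.6 in wild-type livers and was tested through its knockout values. The median was 0.20, against 0.03 over all tested genes, and 56.4% of all tested genes lay above 0. Slc50a1, a glucose carrier of the SWEET type, read 318.4, 433.8 and 395.5 in knockout livers, against 256, 278.9 and 275.3 in wild-type livers. All knockout values were above the wild-type values (log2 0.47 ± 0.15, SE; adjusted p = 0.111). Slc45a3 had a log2 difference of 0.46 ± 0.17 (SE; adjusted p = 0.171) and overlapping groups. Slc2a1, the glucose carrier GLUT1, read 129.5, 165.3 and 112.3 in knockout livers, against 124.5, 84.2 and 90.1 in wild-type livers (log2 0.39, adjusted p = 0.341).

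Carriers of nucleotide sugars and sulfate donors (Slc35), which feed the glycosylation and sulfation enzymes of the Golgi and the endoplasmic reticulum, had 13 tested genes and 0 calls (1 at an unadjusted p under 0.05 in limma). Their log2 differences lay between -0.30 and 0.31, with a median of 0.01. Slc35b3, a carrier of the sulfate donor PAPS, read 312, 304.1 and 276.8 in knockout livers, against 224.6, 237.4 and 248.2 in wild-type livers. These did not overlap (log2 0.31 ± 0.13, SE; adjusted p = 0.252). Knockout values also lay apart in 3 other genes, above wild type in Slc35f5 (log2 0.25, adjusted p = 0.332) and below it in Slc35d1 (log2 -0.18, adjusted p = 0.39) and Slc35e4 (log2 -0.21, adjusted p = 0.474). That made 4 of 13 genes, beside 1589 of 6604 over all tested genes, so such separation was common. Slc35b2, the other PAPS carrier, had a log2 difference of -0.30 (adjusted p = 0.349) and overlapping groups. Slc35a1, the CMP-sialic acid carrier, overlapped on both probe sets (log2 0.02 and -0.06).

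Carriers of inorganic anions, with the Slc17 genes placed here by number, had 10 tested genes, 2 above 0 and 8 below. Of the 10, 0 were called (2 at an unadjusted p under 0.05 in limma), and the median was -0.13. Of the 8, Slc20a2 (log2 -0.36) and Slc12a7 (-0.01) had a dimmer probe set above wild type in all knockout livers. Those log2 differences were 0.47 (adjusted p = 0.229) for Slc20a2 and 0.25 (adjusted p = 0.442) for Slc12a7. Slc20a1, the phosphate carrier PiT-1, read 305.9, 425.2 and 362.3 in knockout livers, against 463.3, 600.3 and 540.1 in wild-type livers. All knockout values were below the wild-type values (log2 -0.54 ± 0.16, SE; adjusted p = 0.0822). The Slc17 genes, which encode organic anion and urate carriers, had values of both signs. Slc17a3 read 1612.8, 1613.6 and 1543.7 in knockout livers, against 1299.6, 1170.9 and 1221.7 in wild-type livers (log2 0.37 ± 0.10, SE; adjusted p = 0.0795). Slc17a1 was below wild type in all knockout livers (log2 -0.26, adjusted p = 0.355), and Slc17a2 gave -0.02 on its brighter probe set and -0.61 on the other (adjusted p = 0.107).

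Among 5 tested genes for inorganic cations and metals, 4 were above 0 and 0 were called (0 at an unadjusted p under 0.05 in limma). These counts use the brightest probe set of each gene. Of the 4, Slc41a1 averaged 92.97 in wild-type livers and was tested through its knockout values. Slc48a1, placed here by its number, was below 0 on its brighter probe set (log2 -0.17, adjusted p = 0.657). Its other probe set was above wild type in all knockout livers (log2 0.39, unadjusted p = 0.0156 and adjusted p = 0.153 in limma). Slc8b1, the sodium and calcium exchanger of mitochondria, read 692.2, 713.7 and 748.3 in knockout livers, against 481.6, 527.7 and 718.3 in wild-type livers, where WT6 overlapped the knockout range (log2 0.33, adjusted p = 0.288). Slc11a1, a metal carrier of macrophage phagosomes, read 329.1, 247.3 and 234.4 in knockout livers, against 228.9, 197.5 and 211.1 in wild-type livers (log2 0.31, adjusted p = 0.343). Beside it, all 10 tested markers of Kupffer cells and macrophages had a log2 difference above 0 with 0 called (4 at an unadjusted p under 0.05 in limma). Their summed signals were 6272 to 8365.5 in knockout livers and 4529.8 to 6399.5 in wild-type livers, and their part in the value of Slc11a1 was not tested. In whole liver, a change in the number of cells of a type and a change in RNA per cell cannot be told apart.

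Carriers of lipids, bile acids and choline had 7 tested genes, with 2 above 0, 5 below and 0 called (2 at an unadjusted p under 0.05 in limma). Of the 5, Slc44a1 had a log2 difference of -0.02 on its brighter probe set. Its other probe set was above wild type in all knockout livers (log2 0.44, adjusted p = 0.104). Slc27a2, a fatty acid carrier and acyl-CoA synthetase, read 8461.8, 7593 and 7384.7 in knockout livers, against 8602.2, 8994.1 and 9984.9 in wild-type livers. The groups lay apart by a small margin (log2 -0.23 ± 0.10, SE; adjusted p = 0.235). Slc33a1, which brings acetyl-CoA into the endoplasmic reticulum, read 293, 206.7 and 371.4 in knockout livers, against 413.2, 476.9 and 389.1 in wild-type livers (log2 -0.56 ± 0.19, SE; adjusted p = 0.143).

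Among 6 tested genes of the vitamin carrier families, Slc46a3, a carrier of the lysosomal membrane, read 514.4, 478.4 and 494.7 in knockout livers, against 748.9, 613.3 and 757.3 in wild-type livers. The knockout values were nearly equal and all below the wild-type range, and the probe set missed the threshold (log2 -0.49 ± 0.13, SE; adjusted p = 0.0571). It passed after median centring (adjusted p = 0.0452), with array weights (adjusted p = 0.0343) and without WT5 (adjusted p = 0.0283). Slc19a2, a thiamine carrier, overlapped and had probe sets of opposite sign (log2 -0.23 and 0.16). Of 3 tested genes for nucleosides and nucleobases, Slc43a3, a purine nucleobase carrier, read 157, 187.8 and 155.3 in knockout livers, against 222.9, 236 and 239.1 in wild-type livers (log2 -0.45 ± 0.15, SE; adjusted p = 0.124). The lysosomal nucleoside carrier Slc29a3 overlapped (log2 -0.23, adjusted p = 0.706), as did Slc47a1, the MATE1 exporter of organic cations (log2 -0.04, adjusted p = 0.882).

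The rule also took in 3 tested genes that are named after carriers without being transporters. Slc9a3r1 and Slc9a3r2, the NHERF scaffold proteins that anchor membrane proteins, had log2 differences of -0.15 (adjusted p = 0.763) and -0.25 (adjusted p = 0.521) on their brightest probe sets, with overlapping groups. Slc4a1ap overlapped as well. Another 12 genes had no tested probe set: Slc1a1, Slc5a4a, Slc6a2, Slc6a5, Slc7a3, Slc25a35, Slc25a36, Slc34a1, Slc35a2, Slc35c1, Slc44a2 and Slc51a. The 16 untested probe sets had signals of 15.3 to 152.7, and 0 of them passed in limma when all probe sets were tested (1 at an unadjusted p under 0.05, that of Slc1a1).

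Of 32 genes with more than 1 tested probe set, 19 had the same sign on all of them and 13 did not. The called genes Slc38a4, Slc7a2, Slc25a10 and Slc13a3 were among the 19. Slc38a2, Slc38a3, Slc25a23 and Slc25a25 were read from 1 probe set each.

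Genes set beside these carriers, as partners or otherwise, were described from lists that hold no Slc symbol. Of 9 tested genes in that first list 0 were called (4 at an unadjusted p under 0.05 in limma), with 3 above 0 and 6 below. Of the 4, Bsg (log2 0.28, adjusted p = 0.138) and Mpc1 were higher, and Mlxipl (log2 -0.34, adjusted p = 0.235) and Atp1b1 were lower. Atp1b1, a subunit of the sodium pump whose gradient drives the Slc38 carriers, read 857.7, 877.1 and 1177.7 in knockout livers, against 1621.8, 1205.3 and 1597.4 in wild-type livers. These did not overlap (log2 -0.60 ± 0.16, SE; adjusted p = 0.0609). Mpc1, of the mitochondrial pyruvate carrier, read 4730.4, 4576.1 and 4894.1 in knockout livers, against 3671.1, 3286.6 and 3894.4 in wild-type livers (log2 0.39 ± 0.10, SE; adjusted p = 0.0549).

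The transcription factor ATF4 is known to raise amino acid carriers such as Slc38a2 when amino acids are short. Of 15 tested genes of that program other than carriers, 0 were called (5 at an unadjusted p under 0.05 in limma), 5 lay above 0 and 10 below, with a median of -0.14. Their summed signals were 11570.7 to 12935.8 in knockout livers and 13990.7 to 16475 in wild-type livers, so the sums did not overlap. Such sums are weighted to the brightest genes. The genes at an unadjusted p under 0.05 did not all go the same way. Atf4, Chac1, Cebpb and Aars were lower, and Shmt2 was higher (log2 0.27, adjusted p = 0.249). Atf4 itself read 601.7, 979.4 and 799.2 in knockout livers, against 1125.6, 1342.9 and 950.3 in wild-type livers, where KO904 overlapped WT6 (log2 -0.53 ± 0.18, SE; adjusted p = 0.145). A link between these values and those of Slc38a2 was not tested.

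Markers of other cell types gave few calls. Of 9 tested endothelial markers 8 lay above 0 and 0 were called (4 at an unadjusted p under 0.05 in limma), with sums of 3627.3 to 4433 in knockout livers and 3106.5 to 3595.1 in wild-type livers. Of the 4, Stab2, Clec4g and Eng were higher, and Lyve1 was lower (log2 -0.56, adjusted p = 0.202). Prom1, the 1 tested bile duct marker, rose (log2 1.12, adjusted p = 0.00828). Of 4 stellate cell markers Rgs5 rose (log2 0.71, adjusted p = 0.0251), and Reln (log2 0.08), Col1a2 (-0.04) and Col3a1 (-0.46) did not pass. Of 2 erythroid markers Alas2 rose (adjusted p = 0.00183), and Hbb-b2 had a log2 difference of -0.33 (adjusted p = 0.338). The 2 tested lymphocyte markers and the 1 neutrophil marker were above 0 without a call (1 lymphocyte marker and 0 neutrophil markers at an unadjusted p under 0.05). The part of these cells in the carriers' values was not tested.

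The calls were sensitive to single samples, while every sign was kept. When each sample was left out in turn, Slc38a3 stayed called 5 of 6 times, lost without KO904, and Slc38a2 (lost without KO904 or WT4) and Slc25a10 (lost without KO903 or KO904) 4 of 6 times. Slc25a25 stayed called 3 of 6 times, lost without KO904, KO905 or WT6. Slc25a23 held its call only without WT4, Slc38a4 only without WT5, Slc13a3 only without KO904, and Slc7a2 never (adjusted p of 0.0631 to 0.167). The number of called carrier probe sets was 3 without KO903, 1 without KO904, 3 without KO905, 4 without WT4, 7 without WT5 and 3 without WT6. With all samples but without the trend in eBayes, the calls left were those of Slc38a2, Slc25a10 and Slc13a3. Slc38a3 was not among them.

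**Figure D4:**
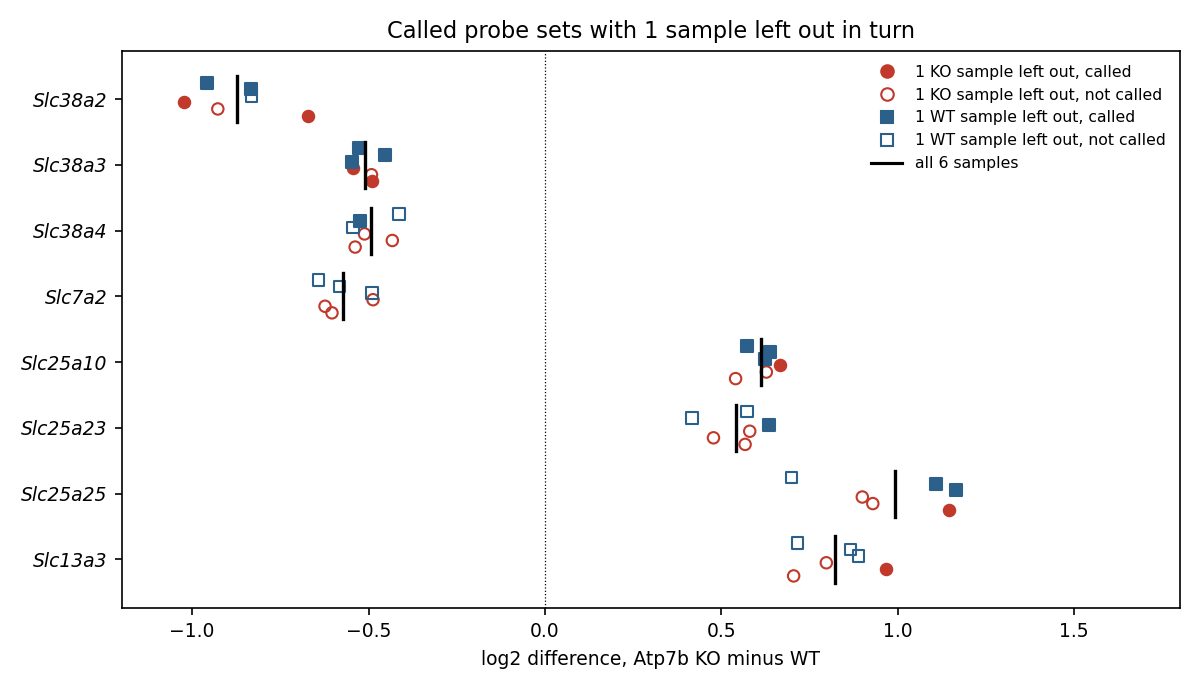
Log2 difference (Atp7b knockout minus wild type) of the 8 called probe sets with 1 knockout sample (circles) or 1 wild-type sample (squares) left out; filled symbols kept an adjusted p under 0.05 and black bars are the values with all 6 samples. No value crosses 0, and the widest range is that of Slc25a25, from 0.70 to 1.17.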

How the data were processed

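Total liver RNA was measured on 6 Affymetrix arrays, 3 of each genotype. The deposited values are linear intensity values: per the labels, the authors computed MAS 5.0 signals and scaled each array to a target of 350. The labels do not say why the table stops at 11811 probe sets. Precision is limited by the 6 arrays. Samples are named after mice without a statement that each is a separate animal, and p-values therefore measure only the spread among these samples, which may be technical.

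The 33 control probe sets were left out. Knockout was compared with wild type on log2(signal + 16) over 10620 probe sets with a mean signal of at least 100. limma 3.58.1 in R 4.3.3 was used (lmFit, eBayes with an intensity trend, two-sided, Benjamini-Hochberg over all tested probe sets, threshold 0.05), tested on simulated data. Folds were computed with the pseudocount and so understate differences at low signal, and errors in the log2 differences are moderated standard errors. Gene names came from the platform annotation, and all 174 identifiers matched RefSeq with 0 symbols changed. A gene with more than 1 tested probe set was represented by the brightest on average. Substrate families follow family numbers, with exceptions for single genes.

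Named were called genes, the 2 genes of smallest p in each family with at least 3 tested genes, a fixed list of liver carriers, and the 5 genes of highest signal, 35 tested genes in all. Others, such as Slc25a3, Slc25a28, Slc25a30, Slc25a44, Slc35b2, Slc35d1, Slc35e4, Slc38a1, Slc66a2 and Slc6a13, were chosen after their values were seen. The same holds for Slc12a7, Slc20a2, Slc41a1, Slc44a1 and Slc48a1. The carriers and lists were chosen with earlier results of these data known. Alternatives covered normalization, pseudocount (1, 64), signal filter (none, 200), variance model, array weights, samples left out, a threshold of 0.10 and the summary per gene. Figures used Python 3.11.15 with matplotlib 3.10.9.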

Additional observations from a re-analysis of the deposited data

How the results depend on the processing

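With all samples 8 carrier probe sets (4 higher, 4 lower) and 4 carrier genes (2 higher, 2 lower) were called, out of 440 probe sets in the whole table (218 higher, 222 lower). With each array centred on its median, 7 carrier probe sets were lower, and 1 carrier gene was higher and 4 were lower. Without the trend in eBayes, 3 carrier probe sets were called (2 higher, 1 lower) and 1 gene (0 higher, 1 lower). The probe sets were those of Slc25a10 and Slc13a3 (higher) and of Slc38a2 (lower). With array weights 1 gene was higher. With probe sets averaged per gene 8 carrier genes were called (4 higher, 4 lower), given without a count over all genes. At a threshold of 0.10 the counts were 16 carrier probe sets (8 higher, 8 lower), 10 genes (5 higher, 5 lower) and 786 probe sets in all (408 higher, 378 lower). Leaving out 1 sample gave 1 to 7 carrier probe sets (1 to 3 higher, 0 to 5 lower), 0 to 4 genes (0 to 2 higher, 0 to 3 lower) and 175 to 469 probe sets in all (82 to 238 higher, 93 to 231 lower), from fits with fewer samples. The median of the carrier genes stayed between -0.03 and 0.03 in these fits. Quantile normalization, both other pseudocounts, both other signal filters and robust eBayes gave 7 to 9 called carrier probe sets. Quantile normalization and centring called 1 probe set of Slc25a44 and the brighter one of Slc38a4 as well, centring also called Slc46a3, and they ended the call of Slc13a3 (quantile normalization) or Slc25a23 (centring, adjusted p = 0.0527).

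Among the named genes, 7 changed sign under at least 1 alternative, and none of them was called. They were Slc25a13 (-0.018; 0.026 after quantile normalization, -0.12 to 0.084 with 1 sample left out), Slc35a1 (0.02; -0.0033 after quantile normalization, -0.0057 after centring, -0.019 with probe sets averaged, -0.094 to 0.12) and Slc3a2 (0.04; -0.0060 with array weights, -0.062 to 0.13). With 1 sample left out they were also Slc25a39 (-0.054 to 0.11), Slc25a5 (-0.071 to 0.041, and 0.049 with probe sets averaged), Slc29a3 (-0.23; -0.41 to 0.036) and Slc47a1 (-0.11 to 0.026). The causes were not tested. No paired analysis was possible because the groups share no sample numbers.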
